A study of Mus musculus with 8 samples.

Results

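The cells described here were chosen by a gate on their own transcript counts. A kept cell passed if at least 3 of 6 genes, Gata2, Apoe, Csrp3, Scin, Trib2 and Gnb4, had 1 or more unique molecular identifiers (UMIs, counted transcripts) and if it had 0 UMIs of Ermap, Gp1bb, Flt3 and Hlf. The gate held 1444 of 10046 kept cells (14.4%): 307 of 2474 in control mice, 268 of 1661 at 3 h, 502 of 3462 at 24 h and 367 of 2449 at 72 h after interferon-alpha (IFNα). Between 47 and 167 gated cells came from each of 15 mice, and control mouse 4 gave only 9 and is left out of the gene tests on gated cells unless stated. Since measured values chose these cells, the levels of the 10 gate genes in them, and any contrast of levels between gated and other cells within a group, are given as a description with no test.

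The study collected bone marrow cells that lack lineage markers and carry c-Kit (LK cells), to which sorted LK CD150+ CD48- CD34- cells were added, from 16 Wildtype mice aged 12 to 14 weeks. A group of 4 mice received 100 µl of PBS as the control, and groups of 4 mice each received 50000 IU of IFNα per 20 g by a subcutaneous injection 3, 24 or 72 h before collection. The cells of each mouse carried their own hashtag antibody, and the 4 mice of a group were loaded into the same droplet library, so that time point and library cannot be told apart. The gated cells of a mouse summed to between 599075 and 2822939 UMIs, which limits what can be said of genes counted in few copies.

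The libraries differed in depth. The median gated cell held 11759 UMIs in control mice, 10301 at 3 h, 15078 at 24 h and 11565 at 72 h, against 20455, 12504, 19796 and 15528.5 in the other kept cells. The 6 pairs of libraries shared 155 cell barcodes before filtering, at most 69 in a pair, 3 among kept cells and 0 among gated cells. Depth bears on the detection of the genes the gate asks for and of those it excludes, so shares are also given after thinning to 6000 UMIs. Shallower cells were left out there: 63 kept cells (18 of them gated) in control mice, 121 (26) at 3 h, 63 (12) at 24 h and 122 (27) at 72 h.

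Gata2 encodes a transcription factor of early blood progenitors that is kept in the megakaryocyte, mast cell and basophil lines and gives way to Gata1 in red cell formation. Basophils and mast cells carry the high-affinity IgE receptor, whose alpha and beta chains are encoded by Fcer1a and Ms4a2, and store granule proteases and histamine. Type I interferon binds the receptor pair Ifnar1 and Ifnar2, and the kinases Jak1 and Tyk2 then act on Stat factors such as Stat2, which joins Irf9 to switch on antiviral genes through a promoter element built of repeated GAAA.

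Of the gate genes, Apoe (apolipoprotein E) was detected in 99.3% of the gated cells and Gata2 in 95.6%. Csrp3, a LIM domain protein best known from muscle, was detected in 58.9%, and Scin, an actin-severing protein, in 29.6%. Trib2, a pseudokinase, was found in 41.4% of the gated cells of control mice and in 27.6% at 3 h, 36.5% at 24 h and 35.7% at 72 h. Nearly every gated cell therefore passed on Gata2, Apoe and at least 1 more gene of the list. With 0 UMIs of the 4 exclusion genes, 677 cells had exactly 2 of the 6 genes, 624 had exactly 3 and 820 had 4 or more. Summed Gata2 stood at 97.1, 245 and 384 CPM (UMIs scaled to a common library total) over these steps, and Csrp3 at 5.59, 151 and 344 CPM, an order that the rule itself fixes. Of 3401 cells with at least 3 of the 6 genes, 1957 were removed by the exclusion genes, most often by Hlf (930 cells) or Ermap (659 cells).

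The label of an early progenitor did not cover what the control cells held. Apart from gate genes, the transcripts with the largest fold over the other kept control cells were Prss34 and Mcpt8, both basophil granule proteases, then Ms4a2 and Fcer1a, Cpa3 (mast cell carboxypeptidase), Rnase12, Gm17590, Prg2 (eosinophil major basic protein) and Cd200r3, a receptor of basophils and mast cells. Prss34 stood at 3362 CPM in the gated cells and 4.11 CPM in the others. Mcpt8 stood at 814 CPM against 21.0 CPM, although the share of cells with a UMI of it, 15.6%, was not above the 16.5% of the others. Ms4a2 was detected in 34.2% of the gated cells, and in 2.27% of control cells chosen by Ermap (Ermap cells, with 0 UMIs of Hlf, Gp1bb and Flt3). For Fcer1a the same shares were 18.2% and 0%. Prg2 rested on single cells, since 40.7% of its UMIs in gated control cells came from 1 cell.

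Other lineages were present as well. Klf1, a transcription factor of red cell precursors, was detected in 51.5% of the gated control cells, between 4.98% of cells chosen by Hlf (Hlf cells) and 93.6% of Ermap cells. Car1, an erythroid carbonic anhydrase, stood at 688 CPM, against 25.8 CPM in Hlf cells and 4581 CPM in Ermap cells. Itga2b, an integrin of megakaryocytes and early progenitors, was found in 60.9% of the gated cells and in 88.7% of cells chosen by Gp1bb (Gp1bb cells), and Pf4, a platelet chemokine, in 16.6% and 72.2%. The stem cell genes Mecom and Procr were found in 8.14% and 1.30%, and in 40.6% and 24.5% of Hlf cells. The whole list of 16 stem cell genes, which holds the excluded Hlf, summed to 1609 CPM in the gated cells and 1743 CPM in Hlf cells, and its most abundant gene, Ifitm1, stood at 991 and 617 CPM, while Hlf (by the rule) and Fgd5 were at 0 in the gated cells. Mpo, the neutrophil peroxidase, was found in 66.8% of the gated cells but also in 60.5% of Ermap cells (median depth 28670.5 UMIs), and this share is not read as a mark of the gated cells. The macrophage list summed to 13.8 CPM, with 4 of its 12 genes at 0. By these markers the gate held a mixture and is called by its rule here.

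**Figure D1:**
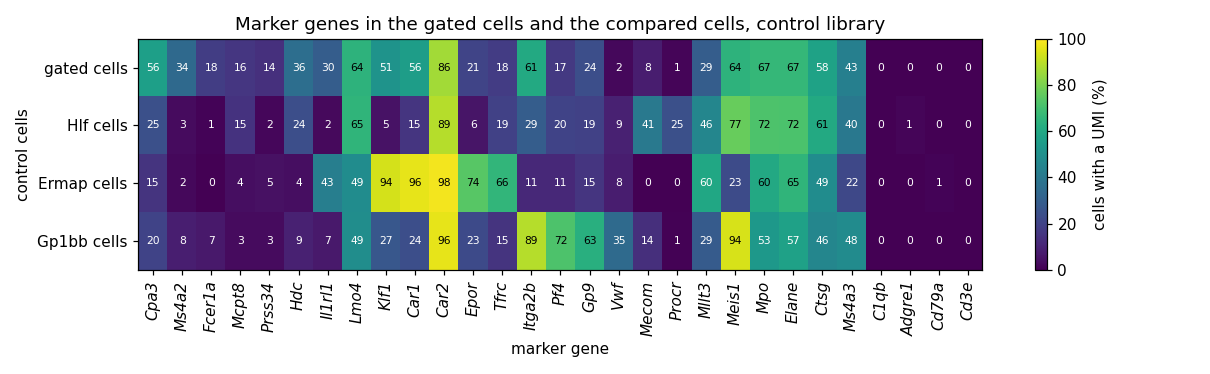
Share of control cells with at least 1 UMI of each marker gene (columns; color scale and numbers in percent), in gated cells and in Hlf, Ermap and Gp1bb cells (from top to bottom). The gated cells stand out for Ms4a2 (34.2%) and Cpa3 (56.4%), while their Klf1 (51.5%) lies between Hlf cells (4.98%) and Ermap cells (93.6%).

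In control mice 63 of 307 (20.5%, 95% Wilson interval 16.4% to 25.4%, counting error only) had at least 2 of Ms4a2, Fcer1a, Mcpt8 and Prss34, a set of 4 genes picked after their values were seen. The share was 2.68% of Hlf cells, 1.36% of Ermap cells and 2.26% of Gp1bb cells. These 63 cells held 2346 CPM of Cpa3, 1487 CPM of Lmo4 and 655 CPM of Csrp3, whereas the other gated cells held 215, 330 and 190 CPM. Cpa3 was still detected in 45.5% of those other cells and Lmo4 in 55.7%. Trib2 went the other way, with 9.89 CPM in the 63 cells and 81.9 CPM in the rest, and so did Car1, with 51.9 and 929 CPM. Gata2 (483 and 348 CPM) and Apoe (1656 and 2065 CPM) differed less. Klf1 was detected in 46.0% of the 63 cells (38.7 CPM) and in 52.9% of the rest (83.1 CPM). Klf1 and basophil transcripts were thus counted in some of the same cells, with Klf1 at a lower level there than in the rest. The median depth was 16773 UMIs in the 63 cells and 10952.5 UMIs in the rest.

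Whether IFNα moved a gate gene can be tested only in cells that the gene did not choose. Each of the 6 genes was therefore tested in the cells that passed on at least 3 of the other 5. In these 6 fits 14.1% of all genes tested passed an adjusted p of 0.05 at 3 h, 3.2% at 24 h and 3.24% at 72 h, and 3 of the 18 gate gene tests passed. Csrp3 fell by 1.57 on the log2 scale at 3 h (SE 0.21, edgeR quasi-likelihood test, Benjamini-Hochberg adjusted p = 1.23e-06), from 273 ± 121 CPM (SD, n = 3) to 93.3 ± 16.8 CPM (SD, n = 4), below every control mouse in 4 of 4 mice. Apoe fell by 0.28 at 3 h (SE 0.08, adjusted p = 0.0135), from 2150 ± 143 to 1771 ± 198 CPM. Scin rose by 1.02 at 72 h (SE 0.18, adjusted p = 0.000467), from 40.5 ± 14.96 to 80.2 ± 11.4 CPM. Gata2 changed by -0.23 at 3 h (adjusted p = 0.182) and did not pass, but in the wider set that passed on 2 of the other 5 genes it fell by 0.55 (adjusted p = 0.000889).

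Over all kept cells of the 16 mice, where no gate acts, 13 of the 30 tests of gate genes passed an adjusted p of 0.05, while 38.8% of all genes did at 3 h, 28.3% at 24 h and 37.4% at 72 h. Summed over these cells, Gnb4, a G protein beta subunit, was higher at all 3 times, by 0.75, 0.39 and 0.37 on the log2 scale. In the cells that passed on at least 3 of the other 5 genes, Gnb4 changed by -0.06, -0.13 and -0.16. None of these passed (quasi-likelihood test, adjusted p = 0.869, 0.768 and 0.707). Over all kept cells Scin rose by 0.55 at 24 h and by 0.88 at 72 h, and Ermap fell by 0.80 at 3 h and by 0.70 at 24 h. A sum over all kept cells can also shift with the mix of cells, which was not tested. Without control mouse 1, 8 of the 30 tests passed.

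The share of kept cells in the gate was close among mice. It was 10.9%, 13.6%, 12.6% and 15.5% in control mice, 17.6%, 16.7%, 16.6% and 13.4% at 3 h, 13.5%, 13.5%, 14.0% and 16.9% at 24 h, and 14.5%, 12.9%, 16.2% and 16.2% at 72 h. Every treated group overlapped the control mice. The mean was 13.2% ± 1.94 (SD, n = 4) in control mice and 16.1% ± 1.86 at 3 h, a difference of 2.90 percentage points (two-sided exact permutation test, p = 0.0857, adjusted 0.257 over 3 times, where 4 against 4 mice allow no p under 0.0286). At 24 h the mean was 14.5% ± 1.64 (exact p = 0.371) and at 72 h 14.9% ± 1.60 (exact p = 0.229). After thinning to 6000 UMIs the 3 h difference was -1.43 points (exact p = 0.429), and -0.036 without control mouse 4, which had few cells. A gate that asked for only 2 genes gave 9.58 points more at 3 h and 4.57 more at 72 h (both exact p = 0.0286, adjusted 0.0429). One that asked for at least 4 genes gave a lower mean at 3 h, 7.13% against 7.88% in control mice. Summed over all kept cells, Gnb4 was higher and Ermap lower at 3 h, levels that the mix of cells can also shift. The 2-gene gate has no thinned value. Its shares are therefore not read as a change in the number of such cells. All these are shares of a sorted mixture to which CD150+ CD48- CD34- cells had been added.

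**Figure D2:**
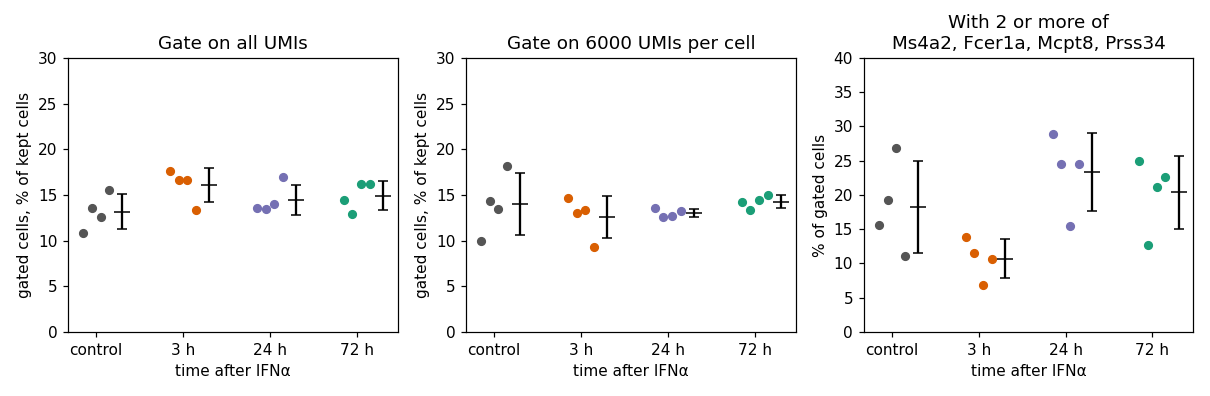
Per mouse (dots, with mean and SD): gated cells as a percent of kept cells, the same in cells thinned to 6000 UMIs with shallower cells left out, and gated cells with at least 2 of Ms4a2, Fcer1a, Mcpt8 and Prss34 as a percent of gated cells, for control, 3, 24 and 72 h. The first measure overlaps between all groups, and the last is lowest at 3 h, between 6.86% and 13.8%; its control mean here includes mouse 4 (11.1%), which rests on 9 cells.

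The response to IFNα was tested on UMIs summed per mouse over the gated cells, in 3 control mice and 4 mice at each time, for 8822 genes other than the gate genes. A gene was called with an adjusted p under 0.05 and a log2 change over 1 in size. At 3 h 347 genes were called higher (3.93% of those tested) and 117 lower (1.33%). At 24 h 61 were higher (0.691%) and 14 lower (0.159%), and at 72 h 45 were higher (0.51%) and 37 lower (0.419%). The changes at 3 h depended on the scaling. With library size alone in place of TMM factors, the median log2 change of all genes moved from -0.04 to -0.21, and 293 genes were called higher and 252 lower at 3 h. A gene passed the filter on low counts if it reached it in the mice of 1 group, so that genes near 0 in control cells were tested through their treated values.

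The receptor itself did not pass the test. Ifnar2 stood at 68.8, 42.0 and 51.3 CPM in control mice and at 58.2, 62.8, 65.2 and 53.9 CPM at 3 h (log2 change 0.18, SE 0.18, adjusted p = 0.591). Ifnar1 changed by -0.18 (SE 0.30, adjusted p = 0.749). Downstream of it, 5 of 11 receptor and signal genes tested were called higher at 3 h and 0 lower (median log2 change 0.81, all genes -0.04), among them Irf7, Stat2, Irf9 and Irf1. Stat2 stood at 6.45, 6.26 and 5.40 CPM in control mice and at 40.4, 53.4, 55.0 and 48.5 CPM at 3 h. Every treated mouse was above every control mouse (log2 change 3.03, SE 0.25, adjusted p = 9.13e-11). At 24 h its change of 0.55 did not pass (adjusted p = 0.425). Irf7, the interferon regulatory factor that feeds the response forward, stood at 7.88, 7.52 and 12.8 CPM in control mice, at 442, 397, 457 and 413 CPM at 3 h, at 44.1, 68.9, 59.9 and 57.4 CPM at 24 h and at 8.97, 7.87, 5.49 and 9.66 CPM at 72 h. The groups at 3 h and 24 h did not overlap with control, and that at 72 h did (log2 changes 5.50, 2.64 and -0.22, adjusted p = 5.07e-22, 2.71e-11 and 0.807).

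Among genes that act on the pathway itself, 7 of 7 feedback and Isg15 system genes tested were called higher at 3 h (median 3.62) and 3 at 24 h. Isg15, a ubiquitin-like modifier, stood at 24.4, 12.5 and 22.95 CPM in control mice, at 2200, 2277, 2138 and 1639 CPM at 3 h, at 68.7, 99.5, 101.3 and 91.8 CPM at 24 h and at 29.7, 15.7, 25.1 and 33.0 CPM at 72 h. All mice at 3 h and 24 h exceeded all control mice, and 3 of 4 did at 72 h (log2 changes 6.70, 2.20 and 0.43, adjusted p = 9.6e-23, 7.93e-10 and 0.396). Usp18, which removes Isg15 and damps the receptor, rose by 5.03 at 3 h and 1.43 at 24 h. Among sensors of foreign nucleic acid, 8 of 9 tested were called higher at 3 h and 4 at 24 h. Zbp1, a sensor that can start necroptosis, rose from 7.88, 3.76 and 4.05 CPM to 359, 311, 379 and 271 CPM at 3 h (log2 change 5.99, SE 0.19, adjusted p = 7.02e-21).

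Of 30 antiviral effectors listed, all 28 that were tested were called higher (median 5.11), 15 at 24 h (median 1.89) and 1 at 72 h (median 0.24), Oas1a. Ifit3, which binds viral RNA complexes, was at 0 CPM in all 3 control mice and at 197, 163, 201 and 106 CPM at 3 h. Against a floor of 3 UMIs over the control group this is at least 249-fold higher. Ifit1, a sensor of viral RNA caps, stood at 5.73, 0.626 and 0.675 CPM in control mice and at 620, 552, 604 and 440 CPM at 3 h (log2 change 7.90, SE 0.23, adjusted p = 8.09e-22). Copies such as Ifit3 and Ifit3b are near-identical, and how reads were split between them is uncertain. Ifi27l2a, a mitochondrial interferon-induced protein, was the exception in time, at 45.3, 78.5, 53.0 and 46.7 CPM at 3 h and higher at 24 h, at 80.7, 106, 128 and 96.6 CPM, against 11.5, 3.76 and 8.78 CPM in control mice. Its log2 change was 2.82 at 3 h and 3.70 at 24 h (adjusted p = 9.47e-09 and 1.24e-12).

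Some promoters of these genes hold the element named above. In RefSeq on GRCm38.p6, GAAANNGAAA (or TTTCNNTTTC on the other strand) was present in 1126 of 32817 promoter windows (3.43%) and in those of 278 of 6842 tested genes (4.06%). It was present for 63 of the 257 genes with a promoter entry among the 347 called higher at 3 h (24.5%), for 2 of 90 among the 117 called lower (2.22%), for 13 of 41 called higher at 24 h (31.7%) and for 4 of 25 called higher at 72 h (16%). A match describes letters and is neither a binding site nor a cause. Capitals mark the element in the windows of Ifit3 (chr19:34583279-34583578, plus strand, 2 matches), Ifit1 (chr19:34640639-34640938, plus strand, 2 matches) and Isg15 (chr4:156200769-156201068, minus strand, 3 overlapping matches), and the window of Irf7 (chr7:141266375-141266674, minus strand), which rose as well, has none. They start 156 and 122 bases before the start site in Ifit3, 104 and 85 bases before it in Ifit1, and from 78 to 66 bases before it in Isg15.
Ifit3: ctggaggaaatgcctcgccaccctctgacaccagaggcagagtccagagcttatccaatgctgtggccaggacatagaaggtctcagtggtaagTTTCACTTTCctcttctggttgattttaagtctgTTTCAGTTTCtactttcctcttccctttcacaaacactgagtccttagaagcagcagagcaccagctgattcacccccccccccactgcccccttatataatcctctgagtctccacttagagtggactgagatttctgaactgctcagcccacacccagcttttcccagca
Ifit1: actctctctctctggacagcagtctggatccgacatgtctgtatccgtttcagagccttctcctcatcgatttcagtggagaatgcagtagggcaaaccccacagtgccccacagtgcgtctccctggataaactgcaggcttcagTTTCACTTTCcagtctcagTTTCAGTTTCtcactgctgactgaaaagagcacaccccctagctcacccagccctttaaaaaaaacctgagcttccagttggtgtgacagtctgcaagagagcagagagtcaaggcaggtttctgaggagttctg
Isg15: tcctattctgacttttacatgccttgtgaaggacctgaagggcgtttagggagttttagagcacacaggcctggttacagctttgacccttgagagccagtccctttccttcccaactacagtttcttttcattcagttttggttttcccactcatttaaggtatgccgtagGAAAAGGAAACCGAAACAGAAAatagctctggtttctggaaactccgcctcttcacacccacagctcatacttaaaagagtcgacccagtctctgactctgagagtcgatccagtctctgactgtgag
Irf7: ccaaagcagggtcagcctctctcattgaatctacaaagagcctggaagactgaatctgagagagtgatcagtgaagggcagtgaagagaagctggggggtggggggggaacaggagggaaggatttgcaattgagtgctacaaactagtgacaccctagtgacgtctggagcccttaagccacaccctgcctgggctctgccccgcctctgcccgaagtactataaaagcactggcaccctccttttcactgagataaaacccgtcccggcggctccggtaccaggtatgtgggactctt

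**Figure D3:**
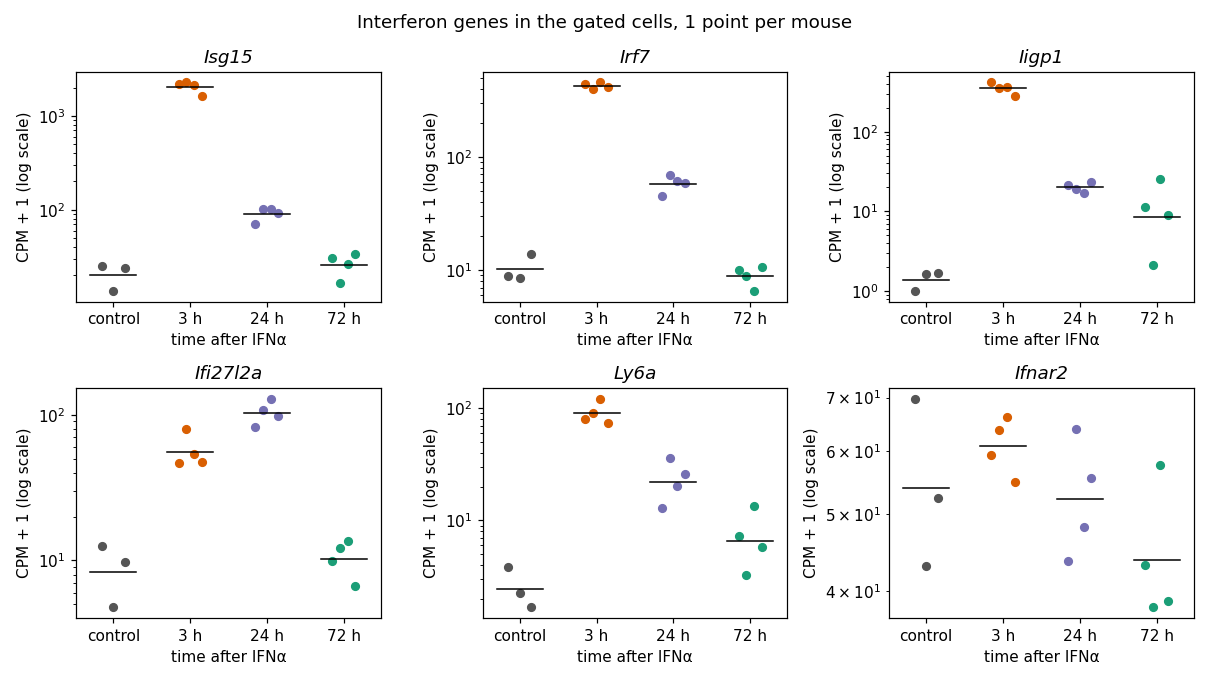
CPM + 1 on a log axis per mouse (dots; horizontal lines are means on the log scale) for Isg15, Irf7, Iigp1, Ifi27l2a, Ly6a and Ifnar2 in gated cells, for control, 3, 24 and 72 h. Isg15 rises from 12.5 to 24.4 CPM to between 1639 and 2277 CPM at 3 h, Ifi27l2a is highest at 24 h, Iigp1 stays above every control mouse at 72 h, and Ifnar2 overlaps its control range.

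Of the immunity-related and guanylate-binding GTPases, which act on the membranes around intracellular parasites, 10 of 10 tested were called higher at 3 h, 3 at 24 h and 1 at 72 h, Iigp1. This gene stood at 0, 0.626 and 0.675 CPM in control mice (2 UMIs in all), at 416, 356, 358 and 282 CPM at 3 h, at 20.2, 18.3, 15.9 and 22.2 CPM at 24 h and at 10.4, 1.12, 24.3 and 8.05 CPM at 72 h. All 12 treated mice were above all control mice (adjusted p = 1.36e-18, 2.62e-06 and 0.000444), and the level at 72 h varied widely among mice. Oas1a was the other gene of these lists called at 72 h, at 5.73, 3.76 and 6.08 CPM in control mice and 8.97, 6.75, 15.7 and 13.7 CPM at 72 h (log2 change 1.15, SE 0.32, adjusted p = 0.0333). Without control mouse 2 its adjusted p was 0.206 (log2 change 0.95), and it also lost the call without control mouse 1 or 3 and without mouse 3 or 4 at 72 h.

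Of 18 antigen presentation genes tested, 9 were called higher at 3 h and 2 at 24 h, Cd74 and H2-Aa, both of the class II pathway and both near 0 in control cells. H2-Aa at 24 h lost its call without any 1 of the 3 control mice (adjusted p = 0.0594, 0.0863 and 0.0766). Nlrc5, the activator of class I genes, rose by 2.76 at 3 h (SE 0.32, adjusted p = 7.2e-08). B2m, the class I light chain, stood at 1380 to 1465 CPM in control mice and was 0.60 higher at 3 h, 0.63 at 24 h and 0.25 at 72 h, all with adjusted p under 0.05 and under the limit of size for a call. Ly6a, which encodes the stem cell marker Sca-1, stood at 2.87, 1.25 and 0.675 CPM in control mice and at 79.3, 89.5, 121 and 73.6 CPM at 3 h. It was at 12.0, 34.8, 19.1 and 25.2 CPM at 24 h, above every control mouse (log2 changes 5.83 and 3.90, adjusted p = 2.15e-12 and 2.04e-06). At 72 h the change of 2.05 did not pass (adjusted p = 0.113). Of the 12 sort and surface marker genes, Fcgr3, an IgG receptor, was the only gene called lower at 3 h, by 1.76, where 1.33% of all genes were.

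**Figure D4:**
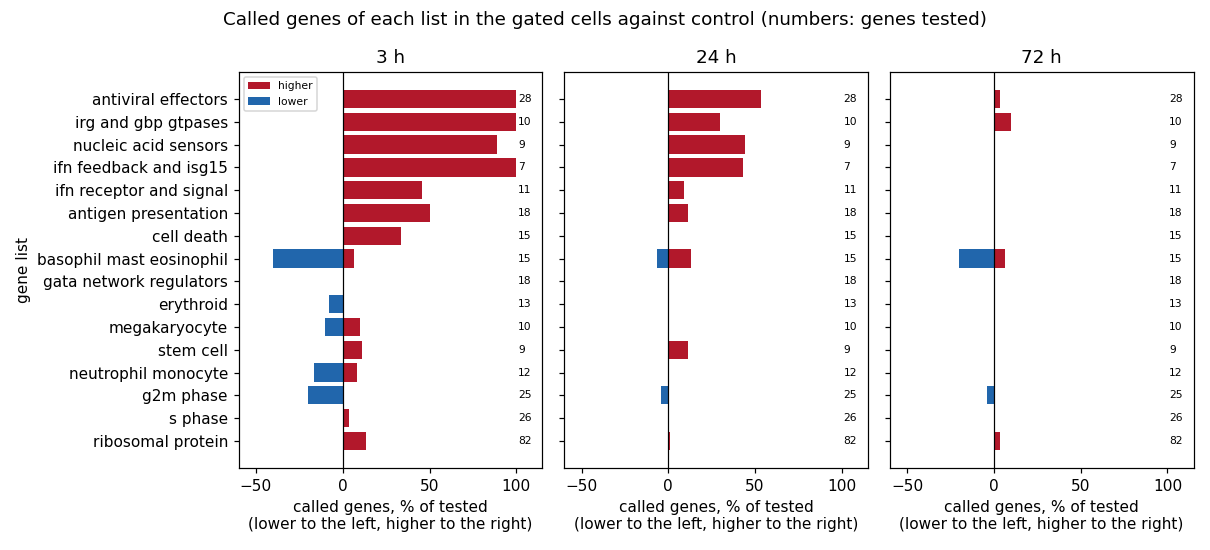
Genes called higher or lower as a percent of the genes tested in each list, at 3, 24 and 72 h, in gated cells. Interferon lists are called higher at 3 h (28 of 28 antiviral effectors), and the basophil, mast cell and eosinophil list has 6 of 15 genes called lower and 1 higher at 3 h, 1 lower and 2 higher at 24 h, and 3 lower and 1 higher at 72 h. Of all genes tested 1.33%, 0.159% and 0.419% are called lower at these times, and 3.93%, 0.691% and 0.51% higher.

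Granule genes of basophils and mast cells were among the largest falls in the gated cells. Of 15 listed genes tested, 6 were called lower at 3 h and 1 higher (median -0.80), 1 lower and 2 higher at 24 h (median -0.15), and 3 lower and 1 higher at 72 h (median -0.26). Of all genes 1.33%, 0.159% and 0.419% were called lower at these times, and 3.93%, 0.691% and 0.51% higher. Among the 6 at 3 h, the fall of Prg2 rested on control mouse 2. Prss34 stood at 2367, 1728 and 5923 CPM in control mice, at 1.62, 4.71, 69.3 and 424 CPM at 3 h, at 1391, 350, 853 and 1046 CPM at 24 h and at 595, 24.7, 155 and 443 CPM at 72 h. Every treated mouse was below every control mouse. It fell by 4.85 on the log2 scale at 3 h (SE 0.70, adjusted p = 3.84e-06), by 3.42 at 72 h (SE 0.60, adjusted p = 0.000355), and at 24 h its change of -1.88 did not pass (adjusted p = 0.0584). Mcpt8 stood at 618, 537 and 1266 CPM in control mice, at 71.2, 25.1, 26.5 and 205 CPM at 3 h and at 183, 16.9, 121 and 243 CPM at 72 h. It too was below the control mice in all 12 treated mice, and fell by 3.43 at 3 h (adjusted p = 3.25e-06) and by 2.47 at 72 h (adjusted p = 0.000177). With DESeq2 in place of edgeR the 72 h falls of Prss34 and Mcpt8 did not pass (adjusted p = 0.136 and 0.0568).

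Fcer1a and Ms4a2 encode chains of the IgE receptor. Fcer1a stood at 89.6, 93.3 and 230 CPM in control mice, at 17.8, 4.71, 11.2 and 52.1 CPM at 3 h, at 68.0, 56.9, 70.7 and 49.6 CPM at 24 h and at 71.1, 30.4, 46.3 and 37.9 CPM at 72 h. All treated mice were below all control mice, and it fell by 2.82, 1.20 and 1.51 (adjusted p = 2.5e-06, 0.00323 and 0.000823). The fall at 24 h rested on control mouse 3 and was 0.61 without it (log2 change -0.61, adjusted p = 0.204). Ms4a2 stood at 162, 208 and 311 CPM in control mice and at 163, 81.6, 151 and 239 CPM at 3 h, overlapping (log2 change -0.54, SE 0.20, adjusted p = 0.0615), and changed by 0.09 at 24 h and 0.03 at 72 h. The difference between both genes was not tested. Cpa3 fell by 0.72 at 3 h (SE 0.14, adjusted p = 0.000499), from 672, 707 and 986 CPM to 387, 432, 492 and 612 CPM, and changed by -0.14 and -0.13 later. Hdc, which makes histamine, changed by -0.45 at 3 h (adjusted p = 0.133), and Il1rl1, the receptor of interleukin-33, by -0.64 (adjusted p = 0.0624).

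Cd200r3 stood at 39.4, 16.3 and 60.1 CPM in control mice and at 1.62, 0, 4.08 and 0 CPM at 3 h, and was below every control mouse at all 3 times (log2 changes -4.35, -2.37 and -3.12). Cyp4f18, an enzyme that breaks down leukotrienes, fell from 18.6, 15.7 and 38.5 CPM to 0, 0, 2.04 and 0 CPM at 3 h (log2 change -4.91, adjusted p = 7.66e-07). It stayed 2.84 lower at 24 h and 2.53 lower at 72 h. Pglyrp1, a granule protein that binds bacterial walls, fell by 2.47, 2.09 and 2.18. Slpi, a protease inhibitor, fell by 3.45 at 3 h and by 2.87 at 72 h, and Ets1, a transcription factor, by 2.95 at 3 h. Ccl3, a chemokine, fell by 2.11 at 24 h and by 2.19 at 72 h, both resting on control mouse 3 (without it -1.41 and -1.48, adjusted p = 0.135 and 0.152).

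Granzyme B went the other way. Gzmb stood at 67.4, 5.64 and 34.4 CPM in control mice and at 262, 144, 160 and 123 CPM at 72 h, above every control mouse (log2 change 2.33, SE 0.56, adjusted p = 0.0114). At 3 h (330, 28.2, 55.0 and 133 CPM) and at 24 h (208, 197, 31.2 and 95.1 CPM) it overlapped with control, with log2 changes of 1.89 and 1.94 (adjusted p = 0.0378 and 0.0446). Leaving out control mouse 2 ended the calls at 24 h and at 72 h (adjusted p = 0.258 and 0.101), as did leaving out mouse 1 at 72 h (adjusted p = 0.0671). Cma1, a mast cell chymase, was near 0 in control mice and at 41.8, 52.7, 0 and 58.5 CPM at 24 h (log2 change 4.85, SE 0.89, adjusted p = 0.000602), with 1 of 4 mice at 0. The fall of Prg2 at 3 h rested on control mouse 2 (2023 CPM, other control mice 0.717 and 0.675 CPM), and without it the change was 4.79 (adjusted p = 0.462).

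The share of gated cells with at least 2 of Ms4a2, Fcer1a, Mcpt8 and Prss34 was 15.6%, 19.2% and 26.9% in control mice 1 to 3, 13.8%, 11.5%, 6.86% and 10.6% at 3 h, 28.9%, 24.6%, 15.5% and 24.5% at 24 h and 25.0%, 12.7%, 21.2% and 22.6% at 72 h. All mice at 3 h were below all of these control mice, and the later groups overlapped them. The means were 20.6% ± 5.80 (n = 3), 10.7% ± 2.88, 23.4% ± 5.66 and 20.4% ± 5.35 (n = 4 each), and 16.7%, 8.11%, 16.3% and 17.2% at 6000 UMIs. The set holds 3 genes that fell, so at 3 h a lower share and less RNA per cell cannot be told apart. Without these cells 326 genes were called higher and 58 lower at 3 h, 70 and 7 at 24 h, and 39 and 18 at 72 h. Of the 464, 75 and 82 calls of the whole gate, 337, 54 and 46 were still called in the same direction. Of the results on single genes, 15 lost the threshold and 2 reversed. Slpi at 3 h and 72 h was among those that lost it (adjusted p = 0.0650 and 0.262). The levels of the 4 genes that chose the removed cells are then fixed by the choice and are not read. The share of these cells in the changes of the whole gate was not tested further.

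**Figure D5:**
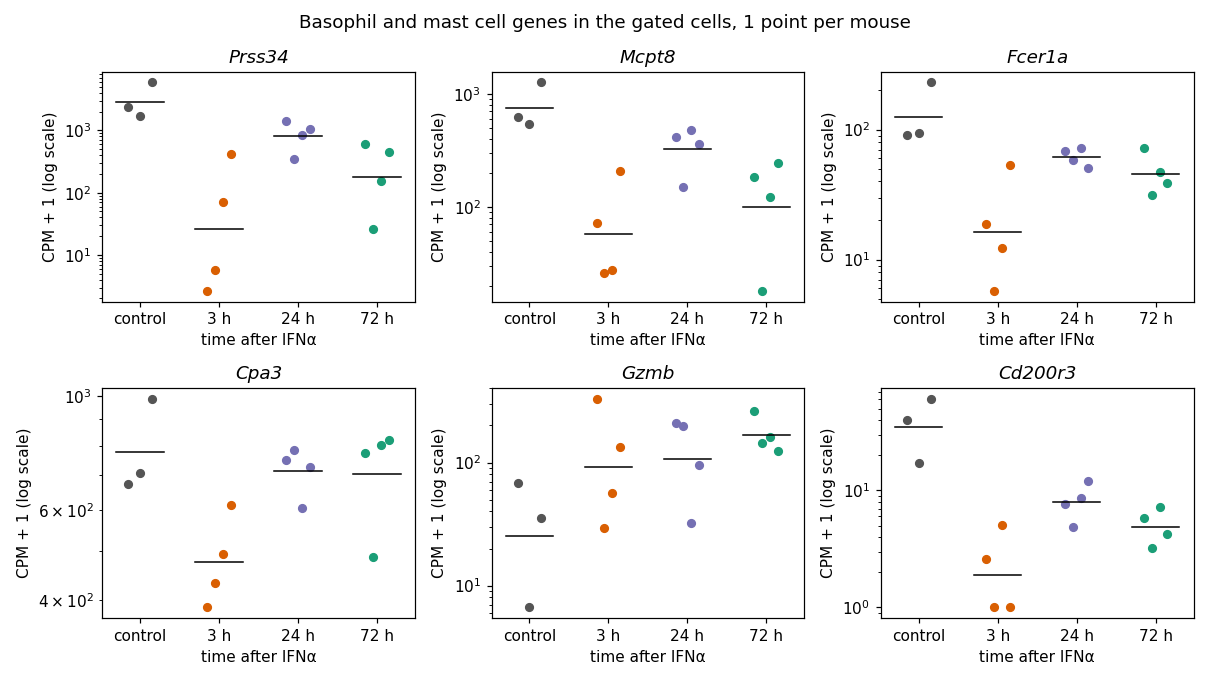
CPM + 1 on a log axis per mouse (dots; horizontal lines are means on the log scale) for Prss34, Mcpt8, Fcer1a, Cpa3, Gzmb and Cd200r3 in gated cells, for control, 3, 24 and 72 h. Prss34 falls from 1728 to 5923 CPM to between 1.62 and 424 CPM at 3 h and lies between 24.7 and 595 CPM at 72 h, whereas Gzmb is above every control mouse at 72 h.

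Of 18 genes of the Gata network tested (median log2 changes -0.13, -0.23 and -0.11), 4 passed an adjusted p of 0.05 at 3 h and 1 at 24 h by the quasi-likelihood test, all with changes under the size limit for a call. Of all genes 15.9% passed that adjusted p at 3 h and 3.8% at 24 h, and the shares of the list lay near these. Among them was Myb, a regulator of progenitor growth, which fell by 0.38 at 3 h (adjusted p = 0.00524). Gata1 stood at 84.6, 82.1 and 112 CPM in control mice and at 97.1, 102, 78.5 and 66.4 CPM at 3 h (log2 change -0.11, adjusted p = 0.662). Klf1 changed by -0.04 (SE 0.18, adjusted p = 0.924) and Itga2b by -0.18 (SE 0.13, adjusted p = 0.41). Of 13 erythroid genes tested 1 was called lower at 3 h, the water channel gene Aqp1, which fell from 51.6, 68.9 and 54.7 CPM to 35.6, 40.8, 20.4 and 12.6 CPM (log2 change -1.12, adjusted p = 0.000776). Of all genes 1.33% were called lower at that time.

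Of the 10 megakaryocyte genes tested, the protease inhibitor Serpine2 was called lower at 3 h (log2 change -1.09, adjusted p = 0.0326), a call lost without control mouse 2 or 3 or mouse 1 or 2 at 3 h (adjusted p = 0.0977, 0.0727, 0.0664 and 0.123). Of 12 neutrophil and monocyte genes, Ctsg (cathepsin G) and Cebpa, a regulator of granulocyte formation, were called lower at 3 h, by 1.26 and 1.16, and Ms4a6c higher, by 2.07. At 3 h 1.33% of all genes were called lower and 3.93% higher. The 12 genes had median log2 changes of -0.68, -0.51 and -0.52 at the 3 times, with 0 calls at the later ones. Ctsg lost its call without the cells with basophil and mast genes (log2 change -0.60, adjusted p = 0.307). Of the stem cell list 1 of 9 was called higher at 3 h, Ly6a. The lymphoid (4 genes tested), plasma and B cell (2), T and NK cell (1) and stromal and endothelial (1) lists gave 2 calls, Pecam1 lower at 3 h by 1.27 and Vpreb1 lower at 24 h by 1.23 (not called without control mouse 2, adjusted p = 0.145), and no gene of the macrophage list passed the filter.

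Of all genes 1.33% were called lower at 3 h, 0.159% at 24 h and 0.419% at 72 h. Of 25 G2/M genes tested 5 were called lower at 3 h, 1 at 24 h and 1 at 72 h, with medians of -0.56, -0.25 and -0.63. Whatever their size, 12, 5 and 12 of them passed an adjusted p of 0.05, where 15.9%, 3.8% and 4.1% of all genes did. Of 26 S phase genes 1, Ccne2, was called higher at 3 h (3.93% of all genes were), with list medians of 0.45, 0.35 and 0.10. Whatever their size, 13 of these S phase genes passed an adjusted p of 0.05 at 3 h, 7 at 24 h and 2 at 72 h. Ube2c, a ubiquitin-conjugating enzyme of mitotic exit, stood at 220, 345 and 319 CPM in control mice, at 125, 122, 82.6 and 140 CPM at 3 h, at 126, 149, 125 and 174 CPM at 24 h and at 73.9, 148, 55.7 and 170 CPM at 72 h. All treated mice were below all control mice, and it fell by 1.37, 1.02 and 1.43 (adjusted p = 4.41e-05, 0.00092 and 2.56e-05). The share of gated cells with a UMI of Mki67 or Top2a at 6000 UMIs was 40.6% ± 1.18 (n = 3) in control mice, then 43.8% ± 4.62, 49.4% ± 1.82 and 34.6% ± 4.37 at the 3 later times (n = 4 each). Ccnd2, the D-type cyclin of early progenitors, rose from 155, 170 and 172 CPM to 505, 552, 518 and 341 CPM at 3 h (log2 change 1.54, SE 0.11, adjusted p = 5.89e-12) and overlapped with control mice at 72 h, between 155 and 174 CPM.

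Of 15 cell death genes tested 5 were called higher at 3 h and 0 lower (median 0.35), 0 at later times: Tnfsf10, the death ligand TRAIL, Casp4, Casp1, Casp8 and Mlkl, the executor of necroptosis. Tnfsf10 rose from 5.73, 4.38 and 12.2 CPM to 46.9, 28.2, 40.8 and 23.3 CPM (log2 change 2.26, SE 0.30, adjusted p = 1.25e-06), and Mlkl by 1.34 (adjusted p = 7.33e-05). Glycolysis gave 2 calls of 13 at 3 h, Hk2 and Pgk1, higher by 2.01 and 1.81, and the cholesterol list 1 of 18, Insig1, higher by 1.22, where 3.93% of all genes were called higher. Of 15 immediate early and stress genes 2 were called lower at 3 h, Hspa1b and Fosb, and without control mouse 3 both missed the threshold (log2 changes -2.25 and -0.87, adjusted p = 0.235 and 0.265). Of 18 nucleotide synthesis genes 1 was called lower at 72 h, Nme2, by 1.49. Among all genes 1.33% were called lower at 3 h and 0.419% at 72 h.

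Another group of genes was higher at all 3 times. Rpl35, a ribosomal protein gene, stood at 671, 714 and 673 CPM in control mice, at 3343, 3751, 3565 and 3526 CPM at 3 h, at 1548, 1601, 1547 and 1609 CPM at 24 h and at 2362, 2446, 2298 and 2417 CPM at 72 h. The mice of a library lay closer to each other than to any other library. Its response in the gated cells differed from that in Hlf cells by 0.00 at 3 h (SE 0.05, adjusted p = 0.990). Of the genes that rose most at 72 h by the rule for named genes, Gm10076, Gm10020, Hist1h2ap, Hist1h2ae, Hmga1 and Lsm7 were raised too, Gm10076 from 35.1, 35.7 and 27.0 CPM to between 115.4 and 148 CPM in the 12 treated mice. The response of Gm10076 at 3 h differed from that in Hlf cells by 0.03 (SE 0.17, adjusted p = 0.993), which does not show that both moved alike. Ribosomal protein genes gave 11 calls of 82 tested at 3 h, 1 at 24 h (Rpl35) and 3 at 72 h (Rpl35, Rps29 and Rpl38), all higher, where 3.93%, 0.691% and 0.51% of all genes were called higher (list medians 0.16, 0.10 and 0.10). Since each time point is 1 library, library and treatment cannot be told apart for these genes, and pseudogenes and histone copies share sequence with other genes.

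Last, the response of the gated cells was set against that of Hlf, Ermap and Gp1bb cells of the same mice, with a term for the difference and with mouse as a block (3 control mice, 4 at each time). Against Hlf cells 40 of 9849 genes passed an adjusted p of 0.05 at 3 h (0.406%), 7 at 24 h (0.0711%) and 11 at 72 h (0.112%). Against Ermap cells 55 of 9167 passed at 3 h (0.6%), 95 at 24 h (1.04%) and 2 at 72 h (0.0218%). Against Gp1bb cells 12 of 8720 passed at 3 h (0.138%), 5 at 24 h (0.0573%) and 0 at 72 h (0%), where 459 genes had an unadjusted p under 0.05 and 2 passed by the likelihood ratio test. Those that also differed by more than 1 on the log2 scale numbered 15, 2 and 3 against Hlf cells, 23, 40 and 2 against Ermap cells and 6, 2 and 0 against Gp1bb cells. The last counts depended on single control mice. Without control mouse 3 they were 9, 0 and 0 against Hlf cells and 9, 7 and 1 against Ermap cells, without mouse 2 they were 21, 12 and 11 and 35, 84 and 10, and without mouse 1 they were 16, 7 and 6 and 16, 17 and 2.

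Against Hlf cells the interferon genes that differed did so from a lower start. Iigp1 stood at 0.440 ± 0.382 CPM (SD, n = 3) in the gated cells and 17.6 ± 5.72 CPM in Hlf cells of control mice, and at 357 ± 56.2 and 542 ± 85.8 CPM at 3 h (n = 4), a log2 change that was 4.51 larger in the gated cells (SE 0.77, adjusted p = 0.00159). Ly6a stood at 1.62 ± 1.14 and 75.4 ± 17.3 CPM in control mice and at 92.0 ± 21.7 and 608 ± 134 CPM at 3 h, a change 2.81 larger (SE 0.47, adjusted p = 0.0013). In both genes the level at 3 h was still lower in the gated cells. Csf1, a growth factor of macrophages, went down in the gated cells, from 25.8 ± 11.1 to 13.9 ± 6.39 CPM, and up in Hlf cells, from 2.60 ± 0.514 to 11.7 ± 4.73 CPM (difference -3.04, SE 0.50, adjusted p = 0.0011). Over the 28 antiviral effectors the median difference from Hlf cells was 0.62 at 3 h, with 3 genes passing, all larger in the gated cells.

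Against Gp1bb cells Ifitm3, which blocks virus entry, rose more, from 347 ± 20.8 to 3639 ± 381 CPM in the gated cells and from 765 ± 123 to 3269 ± 423 CPM in Gp1bb cells (difference 1.29, SE 0.10, adjusted p = 8.16e-11). Serpina3g, a protease inhibitor, did so as well, from 36.9 ± 5.10 to 480 ± 63.3 CPM and from 128 ± 43.6 to 631 ± 140 CPM (difference 1.40, SE 0.18, adjusted p = 1.94e-05). Rtp4, another antiviral effector, rose less, from 27.6 ± 4.94 to 409 ± 40.7 CPM and from 7.95 ± 3.09 to 372 ± 75.5 CPM (difference -1.67, SE 0.36, adjusted p = 0.0488). Against Ermap cells the largest positive differences at 24 h were those of globin genes, which were near 0 in the gated cells. Hbb-bs stood there at 4.21 ± 4.13 CPM in control mice and 5.55 ± 6.05 CPM at 24 h, and in Ermap cells it went from 383 ± 380 to 19.9 ± 17.6 CPM (difference 4.73, SE 0.74, adjusted p = 0.00051). The mice overlapped: gated minus Ermap cells exceeded every control mouse in 1 of 4 mice at 24 h for Hbb-bs. For Hba-a2 it did so in 3 mice and for Hbb-bt in 2. The median difference of the antiviral effectors at 3 h was -0.09 from Ermap cells and 0.22 from Gp1bb cells, with medians of 0.01 and 0.04 for all genes. These differences share their control mice, and cells counted in 1 population are in none of the others it was set against.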

How the data were processed

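Bone marrow cells of 16 mice were measured in 4 droplet libraries with hashtags. The authors deposited whole-number UMI counts per gene and barcode from Cell Ranger 3.1.0 on mm10, not normalized, and, from Seurat, hashtag counts, a demultiplexing margin score (not used here) and a call per barcode as a mouse, multiplet or negative. Barcodes with 1 hashtag, at least 700 genes and at most 5% mitochondrial UMIs were kept, as the study's methods describe.

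UMIs of gated cells were summed per mouse, leaving out mice with fewer than 10 such cells. edgeR (4.0.16, with limma 3.58.1, in R 4.3.3) gave TMM-scaled CPM, filterByExpr filtering and quasi-likelihood tests over all groups, adjusted by Benjamini-Hochberg over all genes tested. CPM of marker shares are pooled over cells without TMM. Shares were compared over mice by exact permutation with SciPy 1.17.1 under Python 3.11.15. DESeq2 1.42.0 was an alternative, and so was leaving out the cells with the highest Scrublet scores (Scanpy 1.11.5), since doublets within a mouse keep 1 hashtag. The edgeR tests of the response in gated cells and of its difference from Hlf cells were tried on simulated data first, and the other tests were not. Promoters came from RefSeq on GRCm38.p6. The hashtags name separate mice; n counts mice.

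Named genes were the 8 largest rises and 8 largest falls per time (adjusted p under 0.05, at least 20 CPM in the higher group, groups not overlapping), the 2 largest called changes per list, the receptor pair, and 3 differences of response in each direction; others were named after their values were seen. Some genes are not reported here. Members, lists and rules were chosen with earlier results of these data known.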

Additional observations from a re-analysis of the deposited data

Results flagged for a closer look

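Of 109 groups of 4 mice examined, 5 held a mouse far from the other 3, and chance alone gives about 1 in 20. The share of gated cells in mouse 4 at 24 h was 16.9% (others 13.5% to 14.0%). At 3 h, mouse 4 stood apart in Prss34 (424 CPM, others 1.62 to 69.3 CPM) and mt-Nd3 (183 CPM, others 209 to 213 CPM), mouse 1 in Prg2 (95.4 CPM, others 0 to 1.02 CPM) and mouse 3 in Cyp4f18 (2.04 CPM, others 0 CPM).

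The other results are differences between the response of the gated cells and that of another population by the test of the difference itself, in log2 units, gated minus other. From Hlf cells at 3 h they were 4.51 for Iigp1, 2.81 for Ly6a, -3.04 for Csf1, -2.98 for Slpi and -2.97 for Ccl3. Gm4951 had 0 UMIs in gated control cells, so its fitted 5.28 is no measured size, and with 3 UMIs over that group the difference was at least 1.89. At 24 h they were 0.75 for Cst7, 0.62 for Nkg7, -1.20 for Fos, -1.05 for Pglyrp1 and -0.97 for Klf6. At 72 h they were 4.42 for Iigp1, 1.21 for Isg15, 1.06 for Pde4d and -0.78 for Zfpm1.

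From Ermap cells the values at 3 h were 5.70 for Hba-a2, 5.60 for Hbb-bs, 5.07 for St3gal6, -5.60 for Csf1, -2.40 for Pecam1 and -2.06 for Nol4l. At 24 h Hbb-bs gave 4.73, Hba-a2 4.53, Hbb-bt 3.95, Pglyrp1 -3.74 and Mcpt8 -3.11, and at 72 h Hba-a2 gave 5.24 and Hbb-bs 5.01. Fcer1a at 24 h had 0 UMIs in Ermap cells of control mice, so its fitted -5.38 is no measured size, and with 3 UMIs over that group the difference was -2.71 or lower. From Gp1bb cells at 3 h Serpina3g gave 1.40, Ifitm3 1.29, Epsti1 1.13, Slpi -3.82, Pglyrp1 -3.65 and Rtp4 -1.67, and at 24 h Hist1h4i gave 1.04, 2810417H13Rik 0.87, Ifitm3 0.49 and Fos -1.30. Of these, Iigp1, Ly6a and Csf1 from Hlf cells at 3 h, St3gal6 at 3 h, Hbb-bs at 24 h and 72 h, Hbb-bt and Pglyrp1 at 24 h from Ermap cells, and Serpina3g and Ifitm3 from Gp1bb cells at 3 h passed under every alternative run. The rest were lost without at least 1 mouse, among them Fcer1a and Mcpt8 at 24 h without control mouse 3 (adjusted p = 0.357 and 0.397).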

How the results depend on the processing

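The calls at 3 h, 24 h and 72 h (464, 75 and 82 genes) became 38 at 24 h with DESeq2, 124 at 24 h and 138 at 72 h with no filter on low counts, and 54 at 72 h with a gate of at least 4 genes. Leaving out 1 mouse gave 428 to 502, 66 to 81 and 68 to 84 calls. The share of gated cells differed from control by 9.58 points at 3 h and 4.57 at 72 h with a gate of at least 2 genes, by -0.756 at 3 h with at least 4, and by -1.43 at 3 h and -0.989 at 24 h after thinning (-0.036 and 0.403 without control mouse 4, chosen after seeing the data); without 1 mouse the differences were 2.15 to 3.81, 0.514 to 2.11 and 1.02 to 2.57. The cause was not tested.

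Counts of differences over 1 in size, at 3 h, 24 h and 72 h, were 15, 2 and 3 from Hlf cells, 23, 40 and 2 from Ermap cells and 6, 2 and 0 from Gp1bb cells. By the likelihood ratio test they were 34, 17 and 15 from Hlf cells, 70, 77 and 12 from Ermap cells, and 15 at 3 h and 2 at 72 h from Gp1bb cells. With no filter they were 38, 26 and 27, then 64, 83 and 24, then 25, 8 and 9. With at least 3 cells of a mouse they were 4 from Hlf cells at 24 h, and 2 at 3 h and 1 at 24 h from Gp1bb cells, where library size alone also gave 1 at 24 h. Leaving out 1 mouse gave 9 to 21, 0 to 12 and 0 to 11 from Hlf cells, 9 to 35, 7 to 84 and 1 to 10 from Ermap cells, and 3 to 11, 0 to 2 and 0 to 1 from Gp1bb cells. Tests of gate genes passed 3 times of 18 when each was left out of the gate and 5 times with at least 2 of the other 5 genes, and over all kept cells 13 times (8 to 15 without 1 mouse).

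Of 146 results on single genes 79 kept direction and side of the threshold in all settings run, 61 lost the threshold somewhere and 7 reversed somewhere. Without 1 mouse Ifnar1 ranged from -0.389 to 0.091 at 3 h and from -0.026 to 0.198 at 24 h. Ifnar1 at 72 h was -0.085 after thinning and ranged from -0.042 to 0.164 without 1 mouse. Ifnar2 at 24 h was 0.0081 with at least 3 cells of a mouse, 0.042 with at least 2 gate genes, 0.074 after thinning, 0.027 without high doublet scores, 0.052 without cells with basophil and mast genes and 0.020 with the replicate block, and from -0.174 to 0.19 without 1 mouse (0.053 and 0.029 without others); at 3 h it was -0.044 with at least 4 gate genes. Mcpt8 at 3 h was 1.23 without cells with basophil and mast genes, an alternative chosen after seeing the data that fixes its level, and Prg2 at 3 h was 4.79 without control mouse 2 and as low as -10.3 without other mice.

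Mouse numbers did not pair the mice: deviations of same-numbered mice correlated between -0.244 and 0.247 (21 pairs, median 0.00398), and 0 mice correlated best with their own number. With the replicate number as a block 353 genes were called higher and 133 lower at 3 h, 66 and 22 at 24 h, and 43 and 46 at 72 h. Depth, 599075 to 2822939 UMIs per mouse, limits genes of few copies, and control mouse 4, with 9 gated cells, entered gene tests only in settings where its cells reached the minimum.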
